A study of Mus musculus with 300 samples.

Results

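The Ikaros family transcription factors examined here were Ikzf1 (Ikaros), Ikzf2 (Helios) and Ikzf3 (Aiolos), 3 of the 13737 features of the matrix. They were chosen by name, and the rule sets no threshold on a measured value. Single cells of the early thymic progenitor (ETP) population were sorted from the thymus of mouse embryos at E15.5 and sequenced with Smart-seq2, a plate method in which reverse transcription starts from oligo-dT primers. All embryos were of the 5x polychromILC strain, whose reporter alleles mark loci of lymphoid transcription factors, among them Id2, Gata3, Rora and Bcl11b. Every cell came from this strain, and no cell without the reporter alleles and no treated cell was part of the series. The labels give 1 group of 300 cells from 4 mouse ids, and 39 of them were not analysed here. The matrix held 67 cells from mouse 1A, 69 from 1B, 64 from 2A and 61 from 2B. The sources used here do not say if a mouse id is a single embryo or a pool, and the labels state neither the surface markers of the sort nor the sex of the embryos.

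Ikaros family proteins bind DNA through a cluster of C2H2 zinc fingers near the start of the protein and pair with each other through further fingers at its end. In mouse lymphocytes they sit in chromatin complexes, above all the NuRD remodelling and deacetylase complex, and can both repress and sustain genes of the lymphoid lineages. Ikaros is needed from the first lymphoid progenitors on, Helios is known from early T cells, regulatory T cells and innate lymphocytes, and Aiolos from later B cells and from natural killer (NK) and other innate lymphoid cells (ILC).

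The members are closely related in the part that contacts DNA, so their coding bases for the second and the third zinc finger are given here to show what separates their reads. The sequences are from the transcript of each gene with the longest annotated coding sequence (GENCODE vM21, GRCm38) and run 5′ to 3′ from the first cysteine codon of the second finger to the last histidine codon of the third. Capitals mark the 49 bases at which the 3 genes are not all the same.
Ikzf1: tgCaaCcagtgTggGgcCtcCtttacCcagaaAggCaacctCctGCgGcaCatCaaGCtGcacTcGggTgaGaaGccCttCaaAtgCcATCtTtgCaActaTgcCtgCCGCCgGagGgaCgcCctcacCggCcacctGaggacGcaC
Ikzf2: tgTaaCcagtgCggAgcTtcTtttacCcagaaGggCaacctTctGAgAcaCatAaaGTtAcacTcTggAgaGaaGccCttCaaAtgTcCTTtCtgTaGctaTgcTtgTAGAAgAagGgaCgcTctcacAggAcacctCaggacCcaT
Ikzf3: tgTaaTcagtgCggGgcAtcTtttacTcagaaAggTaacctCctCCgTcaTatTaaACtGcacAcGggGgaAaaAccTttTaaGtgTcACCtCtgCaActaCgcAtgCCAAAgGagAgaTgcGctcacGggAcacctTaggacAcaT
Over these bases Ikzf1 and Ikzf2 shared 78.2%, Ikzf1 and Ikzf3 76.2%, and Ikzf2 and Ikzf3 72.8%. The differences are spread along the whole stretch, and 0 words of 31 bases were shared between the annotated transcripts of any pair of members. Reads of the 3 genes can therefore be told apart by sequence at that word length. Ikzf1 (ENSMUSG00000018654.17) lies on the plus strand at chr11:11685003-11772926 of GRCm38, Ikzf2 (ENSMUSG00000025997.13) on the minus strand at chr1:69531214-69687245, and Ikzf3 (ENSMUSG00000018168.8) on the minus strand at chr11:98464902-98546031. The annotation lists 6 transcripts of Ikzf1, 9 of Ikzf2 and 4 of Ikzf3, and the matrix holds 1 value per gene, so isoforms were not separated.

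The deposited values are log2 expression after normalization and a batch correction by the authors. The cells fell into 4 sets, in each of which most genes had a lowest value shared by many cells. That floor served as the level at no reads, and any value above it counted as detection. As a stricter call, a level of at least 10 means a log2 value 3.46 or more above this floor, the log2 of 10 plus 1. A cell had a median of 7782 detected genes (5073 to 10337). The second sequencing pool held 96 cells with a median of 8126 detected genes, against 7592 in the first pool, which held all other cells, and the cells of mouse 2A were divided between them. The progenitor label matched most cells: Kit, the stem cell factor receptor, was detected in 90.8% of cells and Cd34 in 94.6%, while Cd3e, a chain of the T cell receptor complex, was detected in 6.51%. However, 65 cells fell into clusters led by genes of NK/ILC, dendritic, macrophage or mast and basophil cells, and results on the members are given with and without them.

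Ikzf1 was present in nearly every cell, Ikzf2 in most and Ikzf3 in a minority. Ikzf1 was detected in 100% of the cells of mice 1A, 1B and 2B and in 96.9% of those of 2A, a mean of 99.2 ± 1.56% (SD, n = 4 mouse ids). Its share was as high as or higher than that of 95.2% of all genes. Because few cells lacked Ikzf1, 3 of the 4 sets had no repeated lowest value for it, and the single lowest cell of each of these 3 sets, counted here as detected, may also lack it. Ikzf2 was detected in 61.2% of cells of mouse 1A (41 of 67), 65.2% of 1B (45 of 69), 75% of 2A (48 of 64) and 90.2% of 2B (55 of 61). Ikzf3 was detected in 32.8% of cells of mouse 1A (22 of 67), 11.6% of 1B (8 of 69), 32.8% of 2A (21 of 64) and 42.6% of 2B (26 of 61). The means were 72.9 ± 12.9% for Ikzf2 and 29.97 ± 13.09% for Ikzf3 (SD, n = 4 mouse ids), and the ranges of the 3 genes over the mouse ids did not overlap.

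The stricter call kept this order and kept the smallest part of the cells with Ikzf3. A level of at least 10 was reached by Ikzf1 in 91.8 ± 5.00% of cells (with the single lowest cell as the floor in 3 sets), by Ikzf2 in 52.6 ± 14.2% and by Ikzf3 in 11.1 ± 5.83% (SD, n = 4 mouse ids). For Ikzf1 that cell had a log2 value of -0.45 in the set of 65 cells, where 98.5% of cells reached the level, and of 2.54 in the set of 67 cells, where 89.6% did. For Ikzf3 these were 11 cells from mouse 1A, 5 from 1B, 10 from 2A and 3 from 2B, 29 cells in all. Mouse 2B thus had the highest share of cells with any Ikzf3 and the lowest share at a level of at least 10, 4.92%. The remaining family genes of the matrix were Ikzf5 (Pegasus), detected in 50.9 ± 10.4% of cells, and Ikzf4 (Eos), in 19.4 ± 6.27%. Ikzf2 was detected more often than Ikzf5 in 4 of 4 mouse ids, whereas the means of Ikzf3 and Ikzf4 differed by less than the SD of Ikzf3. These shares depend on transcript length and depth as well as on expression, and the deposited values are not known to be per length, so levels were not compared between genes.

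Among cells, Ikzf1 varied around one high level, while Ikzf2 and Ikzf3 spanned no reads to high values. The deposited log2 value of Ikzf1 ranged from 2.54 to 10.72 in mouse 1A (median 8.60), from -0.45 to 11.34 in 1B (8.37), from 1.53 to 10.66 in 2A (8.07) and from 1.22 to 10.40 in 2B (8.23). The mouse medians averaged 8.32 ± 0.22 (SD, n = 4), so the mouse ids lay close together. In cells with Ikzf2, its median log2 value above the level at no reads was 4.09 in mouse 1A, 5.61 in 1B, 5.86 in 2A and 5.46 in 2B, a mean of 5.26 ± 0.80 (SD, n = 4). In cells with Ikzf3 the same measure was 3.39 in mouse 1A, 6.12 in 1B, 2.16 in 2A and 1.15 in 2B, a mean of 3.21 ± 2.15 (SD, n = 4). Ikzf3 therefore had the widest spread of medians over the mouse ids. Its highest cells lay far above those medians, at 10.35 in mouse 1A, 12.07 in 1B, 9.96 in 2A and 7.24 in 2B above the level at no reads.

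**Figure D1:**
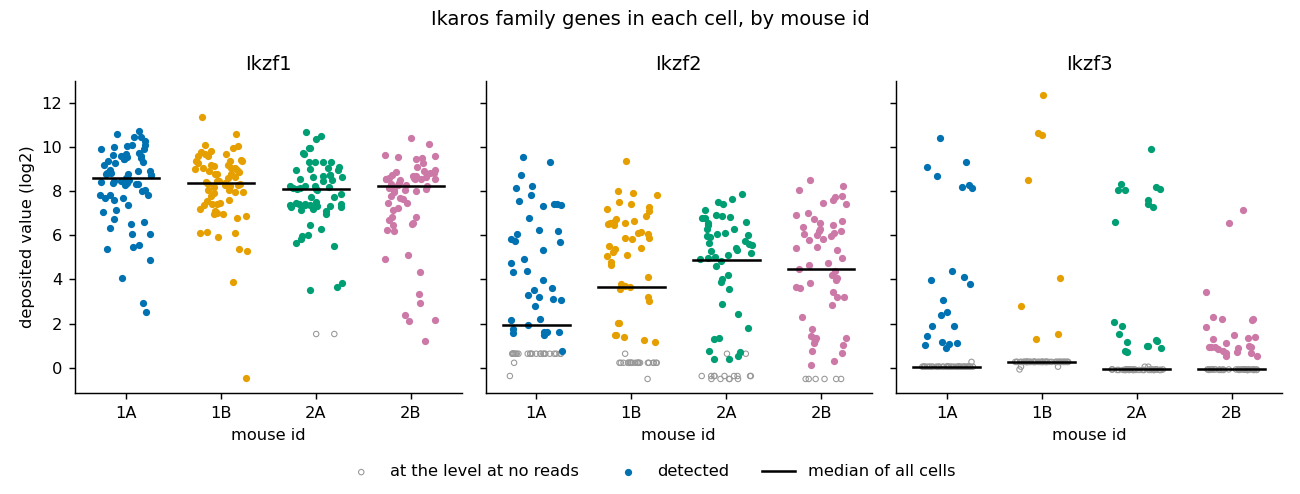
Deposited log2 value of each member in each cell (points), by mouse id on the x axis, with open grey points at the level at no reads and a line at the median of all cells. Ikzf1 values lie around medians of 8.07 to 8.60 in the 4 mouse ids, Ikzf2 values run from no reads to 9.54, and Ikzf3 lies at no reads in most cells with a few cells as high as 12.33.

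Detection of Ikzf2 and Ikzf3 moved with the sequencing pool. Ikzf2 was detected in 88.5% of cells of the second pool (95% exact binomial interval 80.4 to 94.1%) and in 63.03% of the first (55.2 to 70.4%). Ikzf3 was detected in 45.8% of cells of the second pool (35.6 to 56.3%) and in 20.0% of the first (14.2 to 26.9%). Intervals here cover counting error only. Within mouse 2A, whose cells were in both pools, Ikzf3 was detected in 18 of 35 cells of the second pool and 3 of 29 of the first, and Ikzf2 in 30 of 35 and 18 of 29. At a level of at least 10 the pools came together over all cells for Ikzf3, with 11.5% of cells in the second pool and 10.9% in the first. They did not for Ikzf2, with 66.7% in the second and 43.6% in the first. Within mouse 2A, however, they stayed apart for Ikzf3 at that level, with 8 of 35 cells in the second pool and 2 of 29 in the first. Of these cells 9 were in the NK/ILC-like cluster described below and 1 was in another named cluster. Mouse 2A had 10 NK/ILC-like cells, of which 8 were in the second pool, and 7 of those 8 reached that level. In the remaining clusters 0 of its 43 cells did. The gap in 2A at that level thus went with the uneven spread of NK/ILC-like cells over the pools. The part of the pool itself in this gap was not tested. Mouse ids 1A and 1B were sequenced only in the first pool and 2B only in the second, so outside 2A pool and mouse id cannot be told apart. The part of depth in these shares was not tested; within each mouse id, cells with Ikzf2 had more detected genes than cells without it (medians of 7748 against 6751 in mouse 1A and 8056 against 7296 in 2A), whereas cells with Ikzf3 had more only in mouse 2B (8360 against 8091).

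Over all cells Ikzf2 and Ikzf3 were detected together about as often as the product of their shares gives. For pairs with Ikzf1 this could not differ in mice 1A, 1B and 2B, where every cell counted as having Ikzf1. All 3 members were detected in 57 cells (21.8%), 2 in 57.9% of cells, 1 in 52 cells (19.9%) and none in 1 cell. Ikzf2 and Ikzf3 were detected together in a mean of 22.4% of cells per mouse id, against 22.7% for the product of their shares, an excess of -0.316 ± 0.892 percentage points (SD, n = 4), which is smaller than its spread. Without the 65 cells of other classes this excess was -1.93. Ikzf3 was seen without Ikzf2 in 20 cells (7.66%) and Ikzf2 without Ikzf3 in 50.6% of cells. Levels showed no steadier relation. The partial Spearman rho across cells, computed inside each mouse id on ranks adjusted for plate and for how many genes a cell had detected, averaged 0.084 ± 0.140 for Ikzf1 and Ikzf2, 0.011 ± 0.162 for Ikzf1 and Ikzf3, and -0.022 ± 0.049 for Ikzf2 and Ikzf3 (SD, n = 4 mouse ids). For each pair the mean was smaller than the spread, and for each pair the sign differed between mouse ids. Without the 65 cells of other classes the value for Ikzf2 and Ikzf3 was -0.184. Cells of a mouse id share library preparation and depth, so rho is given as a description with no p-value.

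The cells were grouped into 8 clusters without using the 3 members, so that the clusters could be used to describe them. Clusters were named only from marker lists, and comparisons between clusters are descriptions without a test because the clusters come from the same cells. An NK/ILC-like cluster of 23 cells was led by Il2rb, Ctsw, Klrk1, Ccr8, Klrc1, Klrd1 and Id2, with the Id2 reporter transcript tagBFP and the T cell gene Cd3g also among its leading genes. Of its cells 5 were from mouse 1A, 8 from 1B, 10 from 2A and 0 from 2B, and 14 of the 23 were in the first 8 labelled wells of their plates, which are wells 1 to 8 of plate AF1 (6 cells) and wells 19 to 26 of plate JW7 (8 cells), whose labels begin at 19. The other 9 were in wells 80 and 81 of plate AF1 and wells 56 to 62 of plate AF2. All cells of the cluster thus lay in runs of neighbouring wells, so class and well position cannot be told apart. The 5 cells from mouse 1A were also the only cells of that mouse id in their set. A mast/basophil-like cluster of 9 cells was led by Hdc, Mcpt8, Prss34 and Gata2, and a dendritic-like cluster of 19 by Siglech, Pld4, Irf8 and Spib. A macrophage-like cluster of 14 was led by Csf1r, Apoe and Cd68, with Pld4 and Cd74 of the dendritic list also among its leading genes. Its cells had a median of 9 of the 14 dendritic genes detected, against 6 in all other cells, so it was not clearly separate from dendritic cells. A G2M-gene cluster of 54 cells was led by mitosis genes such as Plk1 and Ccnb1. The unnamed clusters 1 (70 cells, led by Mybl2 and Rrm2), 3 (54 cells, led by Mpo, Pdgfrb and Trbc1) and 6 (18 cells, led by Gm9892 and Gm10800) had fewer than 3 markers of any list among their 10 leading genes. The remaining clusters 1, 2, 3 and 6 together held all other cells, of which 99.5% had Kit and 98.5% had Cd34.

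Ikzf3 was most frequent in the NK/ILC-like cells, and its levels were high there and in the mast/basophil-like cells. Of the 23 NK/ILC-like cells 21 had it, 91.3% (95% exact binomial interval 71.96 to 98.9%), against 44 cells of the remaining clusters, 22.4% (16.8 to 28.9%). In NK/ILC-like cells 5 of 5 cells of mouse 1A, 6 of 8 of 1B and 10 of 10 of 2A had it. The levels differed more than the shares. Where detected, Ikzf3 lay 1.96 to 12.07 log2 above the level at no reads in the NK/ILC-like cells (median 8.18) and 0.63 to 8.11 in the remaining clusters (median 1.26). A level of at least 10 was reached in 18 of 23 NK/ILC-like cells and in 3 cells of the remaining clusters, 1.53%. The 9 mast/basophil-like cells had the next highest share, with Ikzf3 in 6 cells and at a level of at least 10 in 5, 5 of the 9 cells being from mouse 1A. Where detected in them, Ikzf3 lay 1.24 to 10.35 log2 above the level at no reads (median 7.93), close to the NK/ILC-like median. Dendritic-like cells had Ikzf3 in 5 of 19 cells (3 at a level of at least 10) and macrophage-like cells in 1 of 14 (0 at that level). Thus 26 of the 29 cells with a level of at least 10 were in the 65 cells of the named clusters.

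**Figure D2:**
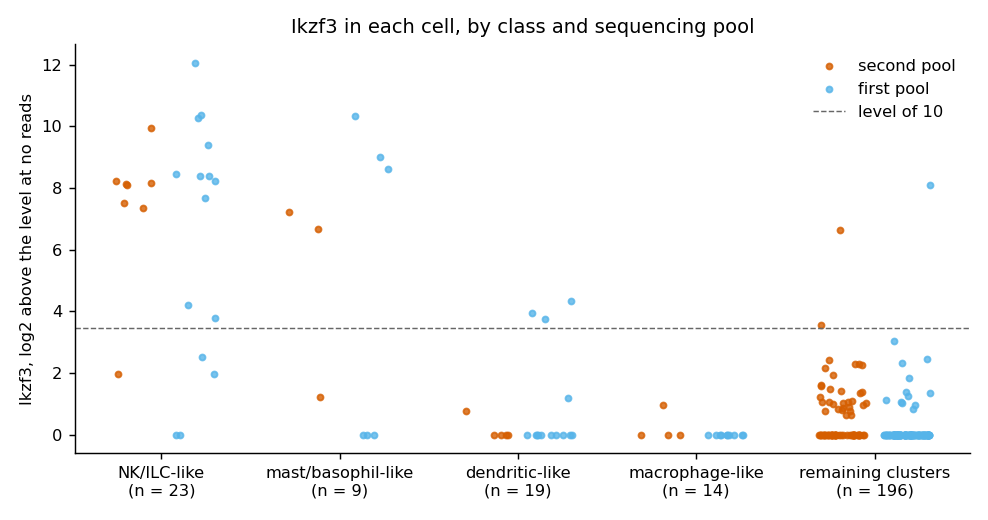
Ikzf3 in each cell (points) as log2 above the level at no reads on the y axis, by class on the x axis and by sequencing pool in colour; the dashed line is a level of 10. Of 23 NK/ILC-like cells 18 lie above the line, against 3 cells of the remaining clusters, where most cells with Ikzf3 lie low (median 1.26) and are from the second pool (31 of 44).

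The low Ikzf3 values of the remaining clusters followed the pool. There Ikzf3 was detected in 31 of 76 cells of the second pool, 40.8%, and in 13 of 120 of the first, 10.8%. By mouse id the counts were 11 of 46 cells in 1A, 2 of 53 in 1B, 8 of 43 in 2A and 23 of 54 in 2B, with 1, 0, 0 and 2 cells at a level of at least 10. The high share of mouse 2B, which had no NK/ILC-like cell, was mostly made up of such low values. What sets the low values was not tested.

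Ikzf2 was widespread in the remaining clusters and had its lowest pooled share in the dendritic-like cells. It was detected in 77.6% of the cells of the remaining clusters (95% exact binomial interval 71.1 to 83.2%). Among these, cluster 3 had the highest pooled share, 44 of 54 cells, with a median of 6.01 log2 above the level at no reads where detected. By mouse id cluster 3 was not highest in 1A (66.7% against 75% in cluster 1) or in 2B (90.9% against 100% in cluster 2). Ikzf2 was detected in 5 of 19 dendritic-like cells, 26.3% (9.15 to 51.2%), and in 7 of 14 macrophage-like cells (23.04 to 76.96%). By mouse id the dendritic-like shares were 10% of 10 cells in 1A and 33.3, 33.3 and 66.7% in 1B, 2A and 2B, and those of the macrophage-like cells in 2A and 2B were the same, 33.3 and 66.7%. Of the 9 mast/basophil-like cells 8 had Ikzf2, all 8 at a level of at least 10. NK/ILC-like cells had Ikzf2 in 17 of 23 cells, 73.9% (51.6 to 89.8%), which overlaps the interval of the remaining clusters. Of the 18 NK/ILC-like cells with Ikzf3 at a level of at least 10, 15 also had Ikzf2, 10 of them at a level of at least 10.

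Ikzf1 differed in level more than in presence. Its median deposited log2 value was 9.48 in dendritic-like, 9.43 in mast/basophil-like and 9.05 in NK/ILC-like cells, against 8.18 over the remaining clusters together. Cluster 6 had the lowest pooled median, 6.73, with Ikzf1 at a level of at least 10 in 11 of 18 cells, while clusters 1, 2 and 3 had medians of 8.09 to 8.50. Its medians were 6.05 in mouse 1A, 7.42 in 2A and 4.64 in 2B, and in 2A that was above the 7.37 of cluster 1. By mouse id the NK/ILC-like medians were 8.43 in 1A, 9.09 in 1B and 9.02 in 2A. In 1B and 2A they were above those of clusters 1, 2 and 3. In 1A the NK/ILC-like median was below the 8.80 of cluster 1 and the 8.56 of cluster 2, and above the 7.82 of cluster 3. Mast/basophil-like cells numbered 3 or more only in mouse 1A, so their median could not be compared over mouse ids. The dendritic-like medians were 9.89 in 1A, 9.37 in 1B, 6.45 in 2A and 9.48 in 2B, so mouse 2A did not follow the others, although 1B, 2A and 2B had only 3 such cells each. Cluster 6 had a median of 6619 detected genes and 10 of its 18 cells were from mouse 2B; the part of depth in its low Ikzf1 value was not tested. Of the named clusters, the dendritic-like cells had 6112 and the NK/ILC-like cells 6704 detected genes, fewer than clusters 1 to 3.

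**Figure D3:**
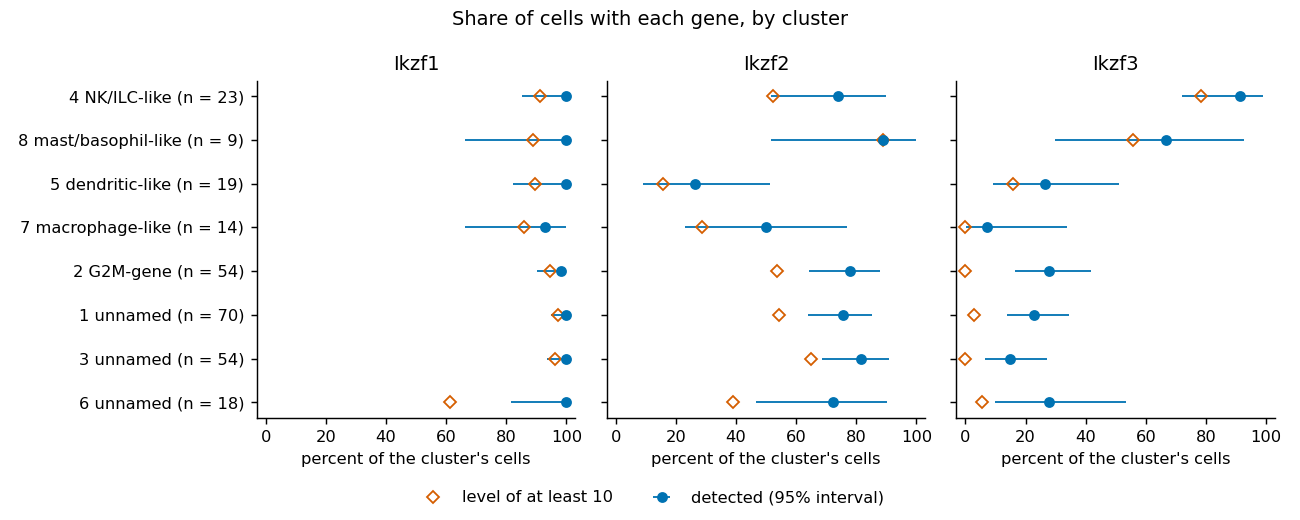
Share of the cells of each cluster (rows, with n) in which each member was detected (filled circles, with exact 95% binomial intervals) or reached a level of at least 10 (open diamonds), in percent on the x axis. Ikzf1 is near 100% in every row, Ikzf2 is lowest in the dendritic-like cells at 26.3%, and Ikzf3 is highest in the NK/ILC-like cells at 91.3%.

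Partner genes were sought over the whole table: a gene met the size rule with a member when its mean partial rho was at least 0.25 in size and had the same sign in 4 of 4 mouse ids. Of 12438 genes detected in at least 10% of cells, 9 met it with Ikzf1 on the positive side (0.0724%) and 0 on the negative side (0.0%). With Ikzf2, 23 met it on the positive (0.185%) and 2 on the negative side (0.0161%). With Ikzf3, 84 met it on the positive (0.675%) and 24 on the negative side (0.193%). The rule is one of size and not a test. The median rho over all genes was 0.003 with Ikzf1, 0.008 with Ikzf2 and -0.019 with Ikzf3.

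With Ikzf1, 9 genes met the rule. Atp2a3, a calcium pump of the endoplasmic reticulum in blood cells, had the highest mean, 0.289 ± 0.224 (SD, n = 4), but its values of 0.237 in mouse 1A, 0.035 in 1B, 0.25 in 2A and 0.576 in 2B were uneven. Coro1a, an actin regulator of leukocytes, followed at 0.286 ± 0.165. Ptprc, which encodes the pan-leukocyte phosphatase CD45 and was detected in 100% of cells, had one of the steadiest values, with 0.212 in 1A, 0.212 in 1B, 0.29 in 2A and 0.3 in 2B (mean 0.254 ± 0.048). Zbtb1, a zinc finger factor needed for lymphocyte development in mice, had 0.272 ± 0.096. The others were Lbr (lamin B receptor, 0.273), Cnn2 (calponin 2, 0.272), Slc44a2 (a choline transporter-like protein, 0.271), Il17ra (interleukin-17 receptor, 0.257) and Rtn4rl1 (0.255). Without the cells of other classes 5 of the 9 still met the rule, Zbtb1 being higher at 0.311 and Coro1a lower at 0.18 and Cnn2 at 0.155, and without mouse 2B 2 of the 9 did. Sf3a2, a splicing factor, was next at 0.247 and did not meet the rule. On the negative side Fabp5, a fatty acid carrier, was lowest at -0.240, followed by Reep3, Tceal8, Tardbp and Nfe2l2 at -0.238 to -0.232, and none met the rule. Coro1a, Lbr, Sf3a2, Reep3 and Tardbp overlap another gene of the matrix, and Ptprc and Nfe2l2 overlap an annotated gene outside it. The sources used here do not say whether the counting used strand.

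The genes that met the rule with Ikzf2 included Tcf7 and Lat of the T specification list on the positive side, and Pld4 and Ighm on the negative side. Trf, which encodes the iron carrier transferrin, had the highest mean rho at 0.323 ± 0.136, with 0.377 in mouse 1A, 0.288 in 1B, 0.463 in 2A and 0.144 in 2B. Tcf7, which encodes TCF1, the Notch-induced factor that starts T cell specification, had 0.324 in 1A, 0.209 in 1B, 0.339 in 2A and 0.276 in 2B, a mean of 0.288 ± 0.058. In cells with Tcf7 the median deposited log2 value of Ikzf2 was 3.09 in mouse 1A, 3.8 in 1B, 4.94 in 2A and 4.54 in 2B, and in cells without Tcf7 it was 0.63, 2.03, 2.66 and 3.84. It was higher with Tcf7 in 4 of 4 mouse ids, though mouse 2B had 5 cells without Tcf7. The share of cells with Ikzf2 was higher with Tcf7 in 3 of 4: it was 72.7% with and 39.1% without Tcf7 in mouse 1A, 63.6 and 71.4% in 1B, 76.8 and 62.5% in 2A, and 92.9% with and 3 of 5 cells without in 2B. The rho of Tcf7 was 0.383 without the 65 cells of other classes.

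Further genes met the rule with Ikzf2. Tespa1, a signalling protein of developing thymocytes, had 0.287 ± 0.102, and Lat, the adaptor of T cell receptor signalling, 0.265 ± 0.031. Trbj1-7, a joining segment of the T cell receptor beta locus, had 0.269, Cd244a, an NK and progenitor receptor, 0.281, Il3ra, the interleukin-3 receptor alpha chain, 0.270, and Srgn, the granule proteoglycan serglycin, 0.276. Mpo (myeloperoxidase) with 0.251 and Cpa3 (mast cell carboxypeptidase, also a progenitor gene) with 0.264 ± 0.046 met the rule as well. Without the cells of other classes Cpa3 was 0.326, Atp8b4 0.209 and Il3ra 0.142, and 11 of the 23 positive genes still met the rule. Atp8b4 (a phospholipid flippase, 0.309), Arap3 (a GTPase-activating protein, 0.286) and Gm47803 (0.284) completed the 10 highest. Gm47803 lies within Stag1, and Trf and Cd244a each overlap another gene of the matrix.

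On the negative side of Ikzf2, Ighm, the immunoglobulin mu constant region that progenitors also transcribe in germline form, had -0.299 in mouse 1A, -0.266 in 1B, -0.323 in 2A and -0.166 in 2B, a mean of -0.264 ± 0.069. Pld4, a nuclease of dendritic and B cells, had -0.257 ± 0.037. In cells with Pld4 the median log2 value of Ikzf2 was 1.60 in mouse 1A, 2.02 in 1B, 3.90 in 2A and 3.22 in 2B, and in cells without Pld4 it was 3.78, 5.45, 5.40 and 6.01, higher without Pld4 in 4 of 4 mouse ids. Both genes stayed negative without the cells of other classes, at -0.227 for Ighm and -0.226 for Pld4. Tpd52, Snx9 and the chaperone gene Hspa5, at -0.244 to -0.237, did not meet the rule.

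Ikzf3 had the highest values of the 3 members, and they belonged to NK receptor genes. Klrk1, which encodes the activating receptor NKG2D, had a mean rho of 0.565 ± 0.214, with 0.451 in mouse 1A, 0.421 in 1B, 0.841 in 2A and 0.379 in 2B. Ikzf3 was detected in 38 of 62 cells with Klrk1, 61.3%, and in 39 cells without it, 19.6% of such cells. In the remaining clusters Ikzf3 was detected in 14 of 30 cells with Klrk1, 46.7%, and in 18.1% of cells without it. Of those 14 cells 11 were from mouse 2B, and in 2A it was 0 of 2 cells with Klrk1. Klrb1b (0.530), an inhibitory receptor of the NK1.1 family, and Klrc2 (0.488), the NKG2C receptor, came next. Tbx21, which encodes T-bet, the T-box factor of NK cells and group 1 ILC, had 0.429 in 1A, 0.493 in 1B, 0.623 in 2A and 0.305 in 2B, a mean of 0.471 ± 0.133. Ccl5, a chemokine of cytotoxic lymphocytes, had 0.471. The chemokine receptor gene Ccr8 had 0.463, Tnfrsf9, which encodes the costimulatory receptor 4-1BB, 0.462, and Cd200r4 0.461. Gm44511, at 0.478, overlaps Klrb1b and Klrb1c, so its reads and theirs may not be separate, and Klrc1 and Klrc2 are near copies of each other. Tnfrsf9 overlaps Camta1, another gene of the matrix.

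These values moved with the level at no reads, which differs between the sets, since each mouse id holds cells of 2 or 3 sets. With each set's level at no reads subtracted, Klrk1 had 0.499 in 1A, 0.550 in 1B, 0.560 in 2A and 0.280 in 2B, a mean of 0.479, and the genes named here with it kept means of 0.399 to 0.526. With that alignment 68 of the 84 positive and 18 of the 24 negative genes still met the rule.

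**Figure D4:**
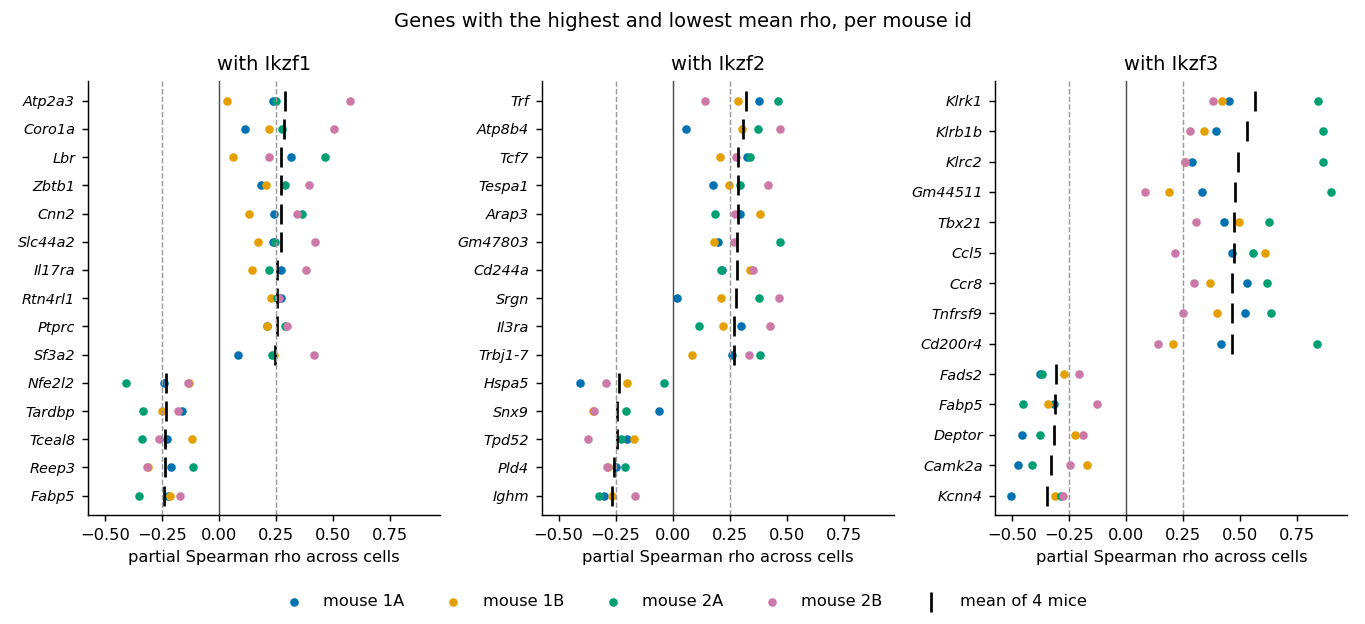
Partial Spearman rho across cells (x axis) of the genes of highest (up to 10) and lowest (5) mean rho with each member, with 1 coloured point per mouse id and a black bar at the mean; dashed lines are at 0.25 and -0.25. For Ikzf3 the points of mouse 2A lie far to the right for Klrk1, Klrb1b, Klrc2, Gm44511 and Cd200r4, whereas the points of Ptprc with Ikzf1 and of Pld4 with Ikzf2 lie close together.

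On the negative side of Ikzf3 were Kcnn4, a calcium-gated potassium channel, with -0.504 in mouse 1A, -0.312 in 1B, -0.287 in 2A and -0.278 in 2B (mean -0.349 ± 0.107), Camk2a (-0.332), Deptor, an inhibitor of mTOR (-0.318), Fabp5 (-0.315) and the fatty acid desaturase Fads2 (-0.309). Myb, a progenitor transcription factor, had -0.293 ± 0.084. Deptor overlaps another gene of the matrix. Without the cells of other classes Kcnn4 was -0.133, Fads2 -0.163 and Myb -0.082, while Deptor was -0.309.

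Across marker lists Ikzf3 stood with NK genes. Of 12 NK genes measured in enough cells, 9 met the rule with Ikzf3 on the positive side and all 12 means were positive, with a median rho of 0.357, against -0.019 over all genes. Besides Klrk1, Klrb1b and Tbx21 they were Klrc1 (0.448), Il2rb, the interleukin-2 and interleukin-15 receptor beta chain (0.420), Ctsw (0.358), Klrd1 (0.356), Klrb1c (0.331) and Nkg7 (0.255). Gzmb (0.211), Ncr1 (0.207) and Gzma (0.199) did not meet it. With Ikzf2 the same 12 genes had a median of -0.055 and with Ikzf1 of 0.023, and 0 met the rule with either. Of 12 ILC genes, 1 met it with Ikzf3, Rora (0.320), and all 12 means were positive, with a median of 0.201. Without the cells of other classes 0 of the 12 ILC genes met the rule and 11 were positive, with a median of 0.11. With the levels at no reads aligned as well 7 were positive, with a median of 0.033. In the NK/ILC-like cells a median of 12 of the NK list's genes was detected per cell (6 to 14), against 4 (0 to 11) in all other cells, and their summed level ranged from 40 to 128.9 in NK/ILC-like cells and from 0 to 60 in the others. Because the cluster was named from this same list, these values describe the cluster and are no separate support.

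Values of Ikzf3 with NK genes moved when few cells were left out. Without the first 8 labelled wells of each plate (for JW7 wells 19 to 26), which held 14 of the 23 NK/ILC-like cells, 0 of 12 NK genes met the rule and the median rho was 0.215, and with the levels at no reads aligned as well 6 of 12 did, with a median of 0.257. That setting kept the NK/ILC-like cells in the later runs of wells of plates AF1 and AF2. Without alignment the values in that setting stayed positive for 12 of 12 genes in mouse 1A, 12 of 12 in 2A and 11 of 12 in 2B but for 3 of 12 in 1B, where only 2 cells with Ikzf3 were left. Without the cells of other classes 5 of 12 NK genes met the rule, with a median of 0.271. With the levels at no reads aligned as well, 1 of 12 did, Il2rb at 0.302, with a median of 0.150, and Klrk1 was -0.271 in mouse 2A against 0.259 in 1A. Over all genes 9 then met the rule on the positive and 5 on the negative side, against 84 and 24 with all cells.

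**Figure D5:**
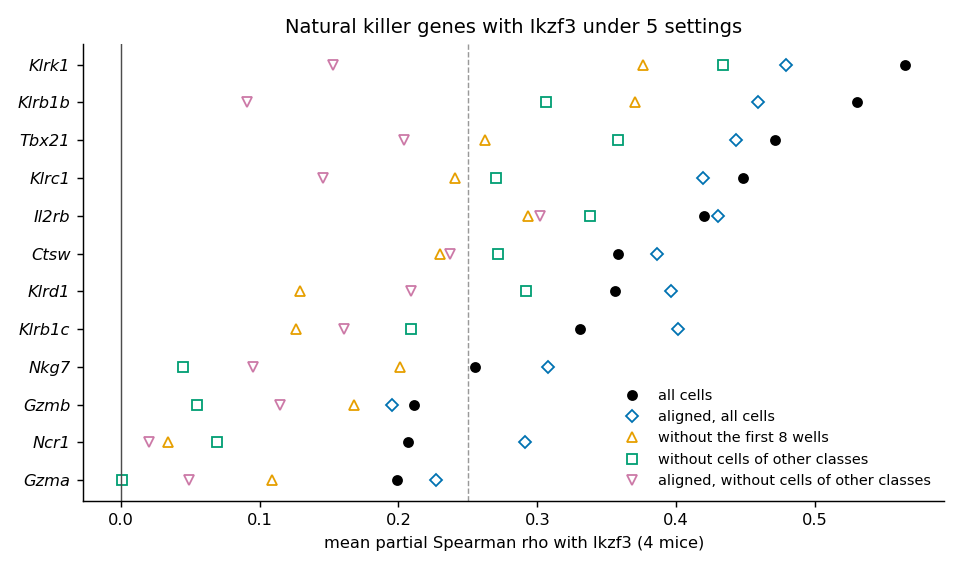
Mean partial Spearman rho with Ikzf3 over 4 mouse ids (x axis) of the 12 measured NK genes (rows) under 5 settings, with the dashed line at 0.25. With all cells 9 genes met the size rule, and the points move left, down to a median of 0.150, when the levels at no reads are aligned and the cells of other classes are left out.

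Genes of cell division also went with Ikzf3. Of 20 G2M genes 5 met the rule, all 20 means were positive, and the median was 0.177. Aurkb, a mitotic kinase, had 0.284 ± 0.136, Kif23 0.264 and Top2a, topoisomerase II alpha, 0.260. All 20 stayed positive without the first wells (median 0.162) and without the cells of other classes (0.176), although 1 and 0 then met the rule. With no adjustment for depth and plate 0 of 20 met it and the median was 0.108. The G2M-gene cluster had Ikzf3 in 15 of 54 cells, 0 of them at a level of at least 10. For S phase genes the median with Ikzf3 was 0.010 with 0 of 20 meeting the rule. For G2M genes with Ikzf2 it was 0.008 with 11 of 20 positive, and -0.09 with 1 of 20 positive without the cells of other classes. For progenitor genes the median with Ikzf3 was -0.128, with 1 of 18 meeting the rule, Myb, and 3 of 18 means positive. Without the cells of other classes it was -0.021, with 0 of 18 meeting the rule and 8 of 18 positive.

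With Ikzf2, 2 of 19 T specification genes met the rule, Tcf7 and Lat, and the median of the list was 0.075. Gata3, the T and ILC factor, had 0.199 ± 0.118 and Runx1 0.238 ± 0.153, below the rule. Of 13 dendritic genes 12 had negative means, with a median of -0.135, but Pld4 was the one that met the rule, and without the cells of other classes 0 met it and the median was -0.078. With Ikzf1 none of the marker lists had a gene that met the rule.

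Genes of complexes that act with Ikaros factors were taken as lists. Of 14 NuRD genes 0 met the rule with any member, and the list medians were 0.042 with Ikzf1, 0.025 with Ikzf2 and 0.012 with Ikzf3. Over all genes the medians were 0.003, 0.008 and -0.019. The shares of all genes that met the rule were 0.0724, 0.185 and 0.675% on the positive side. On the negative side they were 0.0, 0.0161 and 0.193%. A count of 0 in a list this short is near these shares and says little about the list. The gene of largest size was Hdac2, a histone deacetylase of the complex, at -0.194 ± 0.033 with Ikzf3. Likewise 0 of 14 BAF remodelling genes and 0 of 6 Polycomb repressive complex 2 genes met the rule, although Jarid2, a Polycomb cofactor, had 0.219 ± 0.110 with Ikzf2. Of 5 genes of the cereblon ubiquitin ligase, which in human cells degrades Ikaros and Aiolos when bound by thalidomide-type drugs, 0 met it, and Ddb1 had 0.184 ± 0.130 with Ikzf1.

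Of 26 genes described as regulated by Ikaros in mouse lymphoid cells, 0 met the rule with Ikzf1 and the median was 0.0; Rag2, a recombinase gene, was the largest in size at -0.163 ± 0.071. With Ikzf2 1 of the 26 did, Tcf7, and with Ikzf3 0 did. Here too a count of 0 is near the shares over all genes. Among the reporter loci of the strain, Rora met the rule with Ikzf3 at 0.320 ± 0.251, with 0.042 in mouse 1A and 0.554 in 2A, and Id2, the inhibitor of E proteins in innate lymphocytes, lay just under it at 0.248 ± 0.095. Without the cells of other classes Rora did not meet the rule. Bcl11b, the T cell commitment factor, did not meet the rule with any member.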

How the data were processed

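Single cells of 1 labelled group were compared by mouse id, plate and sequencing pool as the labels give them. The authors deposited 1 matrix of log2 values, normalized and, as its values show, batch corrected; per the submitters' processing notes, Salmon and the build GRCm38 were used. Steps not given in the sources used here include the versions, the normalization, the correction and any filter. The analysis had been planned for TPM or counts; the log2 values were not transformed further. Read depth is unknown, so detected genes stand in for it. Cells were joined into 4 sets by identical values (at least 14.2% shared within a set, 0.0% between), and a gene's repeated lowest value in a set, within 1e-06, was its level at no reads; 12054 genes had it in every set. No column lacked a sample, and 39 labelled cells were not analysed here. Gene symbols matched 13578 of 13732 Ensembl IDs.

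Partial Spearman rho was computed inside each mouse id from residuals of ranks on the rank of detected genes and plate, and averaged over mouse ids as Fisher z. The SD over mouse ids is that of their rho values. Clusters used values centred per set, the 2000 most variable genes without the members, 20 principal components and Ward linkage. A cluster was named where at least 3 of its 10 leading genes were markers. Doublets were not called. Named genes were the 10 highest and 5 lowest per member with the same sign in 4 mouse ids, up to 4 of each list and all reporter loci; 1 is not reported here. The members and lists were chosen with earlier results of these data known. With 1 group and cells not replicates, no comparison was tested; Dixon's criterion only picked out mouse ids that stood apart. Procedures were tested on simulated data. Python 3.11.15, numpy 2.4.6, pandas 2.3.3, scipy 1.17.1 and scikit-learn 1.9.0 were used. Alternatives covered the detection call, adjustment, alignment, wells, classes, mouse ids, filters, size and clustering.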

Additional observations from a re-analysis of the deposited data

Results flagged for a closer look

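In 15 measures, 8.88% of those looked at over the 4 mouse ids, 1 mouse id stood apart from the other 3 by Dixon's criterion. Chance gives about 1 in 20. Mouse 2A stood apart in 7. Its share of cells with Ikzf1 was 96.9%, against 100% in the others, and with it the co-detection excess was 0.78 percentage points for Ikzf1 with Ikzf2 and 1.03 for Ikzf1 with Ikzf3, against 0.00 in the others. These measures are not separate, as all rest on the same 2 cells. Only the set of 56 cells had a repeated lowest value for Ikzf1, so only there could a cell count as lacking it. The 2 cells at that value were both from 2A. Its rho with Ikzf3 was 0.841 for Klrk1 and 0.864 for Klrc2, the highest of the 4 mouse ids. With the levels at no reads aligned, the rho of Klrk1 in 2A was 0.56 and in 1B 0.55. Mta3, a NuRD subunit, had 0.096 with Ikzf3 in 2A and was negative in the others.

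Lat had 0.218 with Ikzf2 in mouse 2A, below the others, which had 0.276 to 0.285. In mouse 1B the rho with Ikzf2 was 0.373 for Gata3 and -0.268 for the progenitor receptor gene Flt3, both larger in size than elsewhere. In mouse 2B the rho with Ikzf2 was 0.322 for Zbtb16, which encodes the innate lymphocyte factor PLZF, 0.269 for Ddb1 and 0.014 for Ikzf5, and Cul4a had -0.178 with Ikzf3. In mouse 1A Kcnn4 had -0.504 with Ikzf3, and Bcl11b had -0.038 with Ikzf1.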

How the results depend on the processing

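No paired analysis was possible because the series has 1 group and no comparison was tested. Of 39 alternative values of the detection shares 34 moved by less than the SD over mouse ids, as did all 18 of the levels. With a level of at least 10 the share was 91.8% for Ikzf1, 52.6% for Ikzf2 and 11.1% for Ikzf3, and in the second pool alone 87.9% for Ikzf2 and 47.03% for Ikzf3. Leaving out 1 mouse id at a time gave 98.96 to 100% for Ikzf1, 67.1 to 76.8% for Ikzf2 and 25.8 to 36.1% for Ikzf3. The co-detection excess at a level of at least 10 was 1.3 for Ikzf1 and Ikzf2 and 0.64 for Ikzf2 and Ikzf3, and it was -1.93 for Ikzf2 and Ikzf3 without cells of other classes. The rho of Ikzf2 and Ikzf3 was 0.122 with levels under 10 set to no reads, 0.115 with Pearson, -0.184 without cells of other classes and -0.18 with alignment as well. The causes were not tested.

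The share of genes that met the size rule depended on the setting. For Ikzf1 (0.0724% positive, 0.0% negative) it was 0.233 and 0.0482% with Pearson, 0.161 and 0.0241% without the first 8 labelled wells (0.169 and 0.0161% aligned) and 0.209 and 0.0242% without cells of other classes (0.226 and 0.0242% aligned). On its negative side it was 0.0241% with no adjustment, 0.00835% with levels under 10 set to no reads and 0.00805% with sets in place of mouse ids. For Ikzf2 (0.185 and 0.0161%) it was 0.29 and 0.0725% without cells of other classes (0.298 and 0.0564% aligned), 0.322% positive with no adjustment, and on the negative side 0.0322% with set as covariate and 0.0804% without the first wells (0.0966% aligned). For Ikzf3 (0.675 and 0.193%) it was 1.14 and 0.376% with levels under 10 set to no reads, 1.48 and 1.05% with Pearson, 1.42 and 0.515% with sets in place of mouse ids, 0.185 and 0.0563% without the first wells (0.418 and 0.0563% aligned) and 0.37 and 0.0564% without cells of other classes (0.0726 and 0.0403% aligned). On its negative side it was 1.03% with no adjustment and 0.41% aligned. A size of 0.2 gave 0.378 and 0.0884% for Ikzf1, 0.716 and 0.137% for Ikzf2, and 1.47 and 1.27% for Ikzf3, and a size of 0.3 gave 0.0%, 0.0161 and 0.0%, and 0.289 and 0.0402%.

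Leaving out 1 mouse id at a time, with the same sign then required in 3, gave 0.0563 to 0.378% positive and 0.0322 to 0.0643% negative for Ikzf1, 0.169 to 0.45% and 0.0482 to 0.0724% for Ikzf2, and 0.434 to 1.74% and 0.257 to 0.892% for Ikzf3. The highest positive values came without 1B for Ikzf1 and Ikzf2 and without 2B for Ikzf3, and the lowest for Ikzf3 came without 2A. Settings that combine alignment with left-out cells were chosen after seeing the data. With 5 clusters or with Leiden clustering no cluster was NK/ILC-like or mast/basophil-like, and no alternative clustering gave a macrophage-like cluster. Values of these clusters, and those without the cells of other classes, therefore rest on the 8 Ward clusters. Read depth is unknown, so a gene with few transcripts can be missed in a cell that expresses it.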

Other observations

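Notch target and gamma-delta T cell genes stood mostly on the negative side of Ikzf3, and 0 of them met the size rule. Of 7 Notch target genes 0 had a positive mean rho with Ikzf3, with a median of -0.094, against -0.019 over all genes, and Hes1, a direct Notch target, was the lowest at -0.18. Of 7 gamma-delta T cell genes 1 had a positive mean, with a median of -0.103, and the transcription factor genes Sox4 (-0.23) and Sox13 (-0.21) were lowest. With Ikzf2 the same gamma-delta list had 6 of 7 positive means and a median of 0.056. Values without the cells of other classes are not given for these lists. The NK/ILC-like cells, where Ikzf3 was high, had lower summed levels of both lists. The medians were 13.9 against 27.2 in all other cells for Notch targets, and 8.9 against 15.6 for gamma-delta genes. The part of these cells in the negative values was not tested. Il18r1, the interleukin-18 receptor of innate lymphocytes, had 0.37 with Ikzf3 and did not meet the rule because its sign was not the same in the 4 mouse ids.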
